A study of Mus musculus with 4 samples.

Results

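The organic ion and drug transporters are membrane carriers and pumps of the SLC22, SLCO, MATE (SLC47) and ABC families (subfamilies B, C and G). The genes were chosen by symbol alone, with no measured value in the rule, and the rule left out Slc22a18. They number 54 of the 18383 genes in the deposited count table. By symbol they comprise 12 organic anion transporters of SLC22, 7 organic cation and carnitine transporters of SLC22, 3 other SLC22 genes, 9 SLCO genes, 1 MATE gene, 4 ABCB genes of the plasma membrane, 5 ABCB genes of organelles, 9 ABCC genes and 4 ABCG genes.

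RNA came from primary tubular epithelial cells of the kidney cortex of C57BL/6 mice aged 8 weeks. KMS mice had the genotype SETD2fl/fl MYCfl/fl KspCre/+ and KM mice the genotype MYCfl/fl KspCre/+, with 2 libraries each, so both groups carried the labelled MYC alleles and the Cre transgene and floxed SETD2 was carried by KMS alone. The series title writes these states as MYC+ and MYC+; SETD2-/-, while its design text names other genotypes and triplicates, so the genotypes here are those of the sample labels. The comparison asks how transcript levels of KMS cells stand relative to those of KM cells. The Ksp promoter belongs to kidney-specific cadherin and drives Cre in tubular epithelium, mainly of the distal nephron and collecting duct and less in the proximal tubule. The share of recombined cells was not measured.

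Proximal tubule cells secrete drugs, toxins and metabolites in sequential steps. Carriers of the SLC22 family at the basolateral (blood) side take up organic anions or cations, and MATE and ABC proteins at the apical (urine) side export them. Other SLC22 carriers at the apical side take back urate and carnitine, SLCO carriers move steroid conjugates, prostaglandins and thyroid hormones, and several mouse genes of these families are known to be expressed differently in male and female kidney. SETD2 is the enzyme that trimethylates histone H3 at lysine 36.

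Total counts per library were 9780050 and 8886496 in KMS and 18639040 and 14955148 in KM. Levels are given as CPM, which are counts scaled by the library total and its TMM factor. Setd2, counted over the whole gene, had 58.3 and 49.2 CPM in the KMS libraries, against 54.3 and 58.1 CPM in the KM libraries. The groups overlapped, and because a deleted exon is only a portion of that count and is not named in the labels, this does not check the genotypes. Xist, transcribed from the inactive X chromosome of females, was high in both replicate 1 libraries (4363 counts in KMS and 12967 in KM), and replicate 2 held the Y-linked reads (1471 counts in KMS and 3410 in KM over 4 genes). Each genotype thus had 1 library of each sex by these genes, and ratios are also given within the female (replicate 1) and male (replicate 2) libraries. KM replicate 2 was highest in markers of injured tubule and urothelium. Summed CPM of 8 markers of injured tubule was 3161 and 1170 in KMS, against 4089 and 9612 in KM. For 6 urothelial markers it was 1.66 and 2.31 in KMS, against 9.29 and 76.5 in KM. KM replicate 1 was raised too, as all 8 and all 6 were lower in KMS without overlap, against 31.3% of all genes tested. Krt20 is in both lists, and Havcr1, Upk2, Upk3a and Krt5 were at 0 in some library.

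In KMS the main carriers of the proximal tubule secretion and reabsorption pathways had higher transcript levels by value. Some exporters and minor carriers had lower ones, but the count of genes lower without overlap was near the share over all genes. Of the 54 genes, 46 passed the filter on low counts, and none of them passed the edgeR quasi-likelihood test with genotype as the only term at a Benjamini-Hochberg adjusted p under 0.05. Over all 15002 genes tested, 0.00667% were called higher and 0.0267% lower by that rule. At an adjusted p under 0.10, edgeR gave 5 higher, against 3.53% of all genes, and 3 lower, against 4.58%. At an unadjusted p under 0.05, edgeR gave 17 of the 46 higher, against 12.2% of all genes tested, and 8 lower, against 14.1%. The DESeq2 Wald test called 13 higher, against 5.82% of all genes, and 3 lower, against 5.96%. With a term for the replicate number, which was read as sex after the data were seen, edgeR called 5 higher (Slc22a4, Slc22a5, Slc22a6, Slc22a22 and Slco1a1), against 1.93% of all genes, and 3 lower (Abcc3, Slco4a1 and Slc22a13), against 3.5%. By the authors' deposited table, 3 of the 54 were higher at an adjusted p under 0.05, Slc22a4 and Slc22a5 among them, against 1.34% of its genes, and 1 was lower (Abcc3), against 0.887%. Abcc3, Slc22a4 and Slc22a5 met the threshold by DESeq2, by the model with sex and in the deposited table. The genotype-only counts depended on which libraries were in the fit, for these genes and for all genes alike. Without KM replicate 1, edgeR called 5 of the transporters higher, against 3.67% of the 15537 genes then tested, and 4 lower, against 7.83%. Without KM replicate 2 it called 1 higher, against 0.168% of 14882 genes, and 3 lower, against 0.968%. Both fits leave KM with 1 library, which is assumed to vary like the KMS libraries. Without either KMS library in turn, edgeR called 0 genes in all, and 0 transporters.

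The KMS and KM libraries did not overlap for 30 of the 46 genes, 18 of them higher in KMS, against 29% of all genes tested, and 12 lower, against 31.3%. As shares of the 46, the lower ones are thus near the background. The median log2 fold change over the 46 was 0.31, against -0.01 over all genes tested, with medians of 0.03 in the female libraries and 0.34 in the male libraries. That median depended on single libraries, as it was -0.00115 without KMS replicate 1 and 0.0468 without KMS replicate 2.

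**Figure D1:**
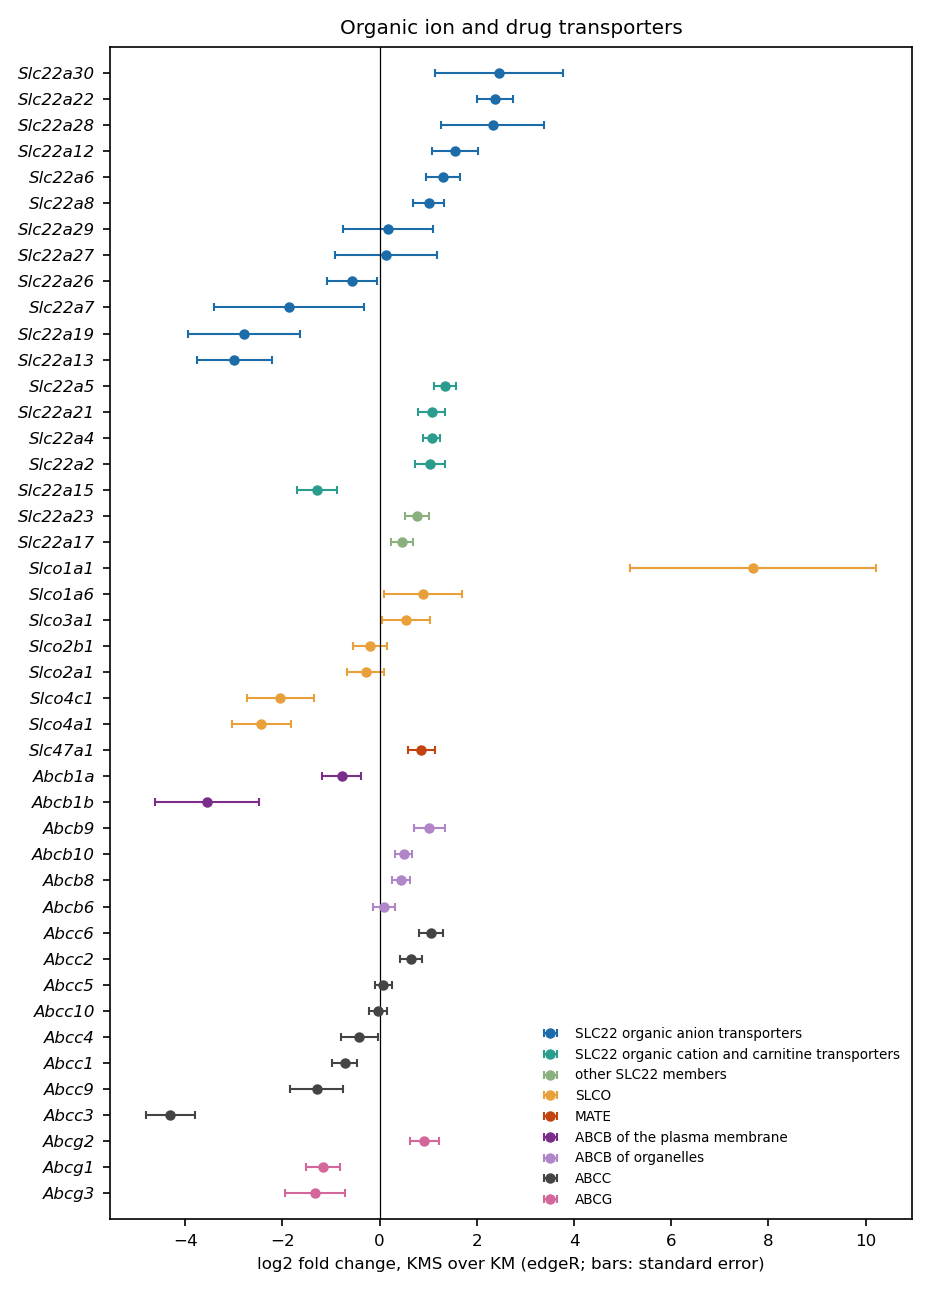
Log2 fold change of KMS over KM (x axis, edgeR, genotype only) for 44 of the transporter genes tested, in rows grouped and coloured by family; points are estimates and bars standard errors from 2 libraries a group. The SLC22 cation and carnitine carriers shown, other than Slc22a15, lie between 1.03 and 1.35, Abcc3 and Abcb1b lie below -3.5, and Slco1a1 has the widest bar.

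Slc22a6 and Slc22a8 encode OAT1 and OAT3, the basolateral carriers that take up organic anions such as diuretics and antivirals in exchange for dicarboxylates. Slc22a6 (chromosome 19, 8617996 to 8628299, GRCm38) had 495 and 859 CPM in the KMS libraries, against 228 and 321 CPM in the KM libraries. Both KMS libraries lay above both KM libraries, with a log2 fold change of 1.30 ± 0.35 (standard error, edgeR adjusted p = 0.104, and 0.0472 with sex in the model). Its log2 ratios were close in both sexes, 1.12 in the female and 1.42 in the male libraries. Slc22a8 (chromosome 19, 8591254 to 8611835) had 1185 and 704 CPM in KMS, against 450 and 489 CPM in KM. The groups again did not overlap, but the female KMS library was the higher one here, with log2 ratios of 1.40 in the female and 0.53 in the male libraries (log2 fold change 1.01 ± 0.32 standard error, edgeR adjusted p = 0.129). Without the female KMS library the log2 fold change of Slc22a8 was 0.62.

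Proximal tubule markers were also higher by sum in both KMS libraries than in both KM libraries. Their summed CPM over 14 genes, of which Slc22a6 is 1, was 19350 and 24890 in KMS, against 10570 and 8774 in KM, and 10 of the 14 were higher without overlap, against 29% of all genes tested. Between replicates, Slc22a8 ran opposite to the marker sum in both genotypes, and Slc22a6 did so in KM. None of the 14 was at 0 in any library, and none was called by edgeR with genotype alone. In bulk RNA, fewer cells of a type and less RNA per cell cannot be told apart, and the part of cell composition in the transporter differences was not tested. The markers of thick limb and distal tubule summed to 6228 and 3781 CPM in KMS, against 3505 and 895 CPM in KM, and those of podocytes to 2218 and 2060 CPM in KMS, against 1896 and 920 CPM in KM. Collecting duct markers were not higher by sum, at 463 and 299 CPM in KMS, against 579 and 407 CPM in KM, and these sums overlapped. Of those 8 genes, 3 were higher and 4 lower without overlap, against 29% and 31.3% of all genes tested.

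Promoters are shown for 5 genes, those of highest mean CPM with an entry among Slc22a6, Slc22a8, Slc22a12 and the genes called by the deposited table or by the model with sex. The windows run from 250 bases before to 50 bases after the RefSeq start (GRCm38.p6 table), in the direction of the gene. The Slc22a8 window lies inside the gene span given above (8591254 to 8611835), so it belongs to a start other than the outer one. Capitals mark AGGTCA (reverse TGACCT), a core element of nuclear receptor sites, on either strand. No window shown holds GGGTCA (reverse TGACCC), the other set of letters searched, and no marked matches overlap.
Slc22a6 (chr19:8617746-8618045, + strand): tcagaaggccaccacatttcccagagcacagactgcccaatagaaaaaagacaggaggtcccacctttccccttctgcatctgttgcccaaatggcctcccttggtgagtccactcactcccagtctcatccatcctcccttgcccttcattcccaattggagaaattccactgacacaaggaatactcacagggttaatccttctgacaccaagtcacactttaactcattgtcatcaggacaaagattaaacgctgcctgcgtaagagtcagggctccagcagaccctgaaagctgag
Slc22a8 (chr19:8592932-8593231, + strand): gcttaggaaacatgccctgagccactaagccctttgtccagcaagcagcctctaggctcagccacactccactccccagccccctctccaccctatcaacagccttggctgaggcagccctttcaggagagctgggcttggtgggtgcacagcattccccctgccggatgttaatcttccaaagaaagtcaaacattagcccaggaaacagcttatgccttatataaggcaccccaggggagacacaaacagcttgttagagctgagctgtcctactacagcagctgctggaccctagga
Slc22a12 (chr19:6543021-6543320, - strand): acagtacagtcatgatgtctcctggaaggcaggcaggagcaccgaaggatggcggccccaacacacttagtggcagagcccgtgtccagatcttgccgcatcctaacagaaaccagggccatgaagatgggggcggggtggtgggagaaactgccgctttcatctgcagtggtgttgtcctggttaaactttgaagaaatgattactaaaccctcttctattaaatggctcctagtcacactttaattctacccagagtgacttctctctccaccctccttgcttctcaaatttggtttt
Slc22a5 (chr11:53891654-53891953, - strand): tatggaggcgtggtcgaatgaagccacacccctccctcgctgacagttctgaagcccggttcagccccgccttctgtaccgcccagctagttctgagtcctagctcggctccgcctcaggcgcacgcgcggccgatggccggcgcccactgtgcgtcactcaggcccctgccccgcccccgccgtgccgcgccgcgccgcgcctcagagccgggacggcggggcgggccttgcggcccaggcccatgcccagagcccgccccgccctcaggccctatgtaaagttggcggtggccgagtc
Slco1a1 (chr6:141946913-141947212, - strand): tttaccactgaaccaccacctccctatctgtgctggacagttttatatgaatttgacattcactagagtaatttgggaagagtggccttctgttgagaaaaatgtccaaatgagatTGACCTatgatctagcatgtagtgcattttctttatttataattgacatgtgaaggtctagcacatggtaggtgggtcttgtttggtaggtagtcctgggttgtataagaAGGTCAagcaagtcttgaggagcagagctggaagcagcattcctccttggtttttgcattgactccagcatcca

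AGGTCA occurs 2 times in the Slco1a1 window, on opposite strands, and is found in 16.3% of the 32851 promoter windows of the table and in 8 of the 41 transporter genes with an entry. GGGTCA is found in 13.7% of all windows and in 11 of the 41 genes. The percentages count windows, while a gene counts if any of its windows matches. Some of the genes, such as Slco2b1 and Abcg2, have several windows, so the 2 kinds of share are not alike. The Slc22a5 window has a GC content of 72.7%, against 50% for both Slc22a6 and Slc22a12, 55% for Slc22a8 and 42.0% for Slco1a1. These are matches of letters, with no measure of binding behind them.

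Slc22a12 encodes URAT1, the apical urate exchanger, and had the highest mean level per length of the 54 genes in both genotypes. Its 4 libraries (chromosome 19, 6535854 to 6543070) gave 557 and 1366 CPM in KMS, against 269 and 385 CPM in KM. The groups did not overlap, and the male KMS library was the highest (log2 fold change 1.56 ± 0.47 standard error, edgeR adjusted p = 0.116, and 0.05002 with sex in the model), and the log2 fold change was 0.79 without that library and 2.1 without KMS replicate 1. Its exons overlap those of Nrxn2 on the opposite strand over 682 bases, and whether reads were counted by strand is not stated. Slc22a22, which encodes a prostaglandin-specific organic anion carrier of the mouse kidney, had 66.6 and 140 CPM in KMS, against 21 and 18.7 CPM in KM. Both KMS libraries lay well above both KM libraries, and the log2 fold change was 2.38 ± 0.37 (standard error, edgeR adjusted p = 0.0689, and 0.0118 with sex in the model). Its log2 fold change was 1.76 without KMS replicate 2 and 2.86 without KMS replicate 1.

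Slc22a13, Slc22a19 and Slc22a7, of lower level, were lower by value, and the female KM library stood apart in all of them. Slc22a13, which encodes the urate and nicotinate carrier OAT10, had 2.28 and 2.43 CPM in KMS, against 31.1 and 6.31 CPM in KM. The groups did not overlap, with a log2 fold change of -2.99 ± 0.77 (standard error, edgeR adjusted p = 0.09998, and 0.0393 with sex in the model), and 21.8% of its 100-base windows also occur in another annotated transcript, mainly of Slc22a13b-ps. Its log2 fold change was -1.41 without KM replicate 1 and -3.72 without KM replicate 2. Slc22a19, which encodes the apical carrier OAT5 of rodents, had 3.21 and 2.67 CPM in KMS, against 38.3 and 2.45 CPM in KM. Only the female KM library was high, and the log2 fold change of -2.79 ± 1.15 (standard error, edgeR adjusted p = 0.193) became 0.28 without that library. Slc22a7, which encodes OAT2, had 1.14 and 5.35 CPM in KMS, against 22.9 and 0.306 CPM in KM. The log2 ratios were -3.84 in the female and 2.86 in the male libraries, so the genotypes overlapped (edgeR adjusted p = 0.478). The 3 blood cell markers were also highest in the female KM library, at a sum of 269 and 263 CPM in KMS, against 1135 and 79.6 CPM in KM, and their part in these values was not tested.

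The remaining organic anion genes belong to a cluster of mouse paralogs on chromosome 19 with names from Slc22a26 to Slc22a30. Slc22a28 had 10.6 and 146 CPM in KMS, against 11.1 and 20.02 CPM in KM, and Slc22a30 had 5.59 and 162 CPM in KMS, against 7.67 and 22.7 CPM in KM. In both genes only the male KMS library was far above the rest, with log2 ratios of 2.83 and 2.81 in the male libraries against -0.07 and -0.42 in the female libraries. Both log2 fold changes, 2.32 ± 1.06 for Slc22a28 and 2.47 ± 1.32 for Slc22a30 (SE), missed the test (edgeR adjusted p = 0.224 and 0.285). Slc22a29 had the reverse pattern over the sexes and none over the genotypes, with 58.4 and 10.3 CPM in KMS, against 50.9 and 10.2 CPM in KM. Slc22a26 and Slc22a27 stayed at or under 2.05 CPM in every library. Of the 100-base windows of Slc22a28, 37% occur also in other genes of the cluster, and 24.3% of those of Slc22a30, so counts within this cluster are uncertain.

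The organic cation and carnitine carriers described here were alike in value, apart from Slc22a15. Slc22a2 encodes OCT2, a basolateral uptake carrier for metformin and other organic cations. Slc22a2 (chromosome 17, 12584189 to 12628489) had 131 and 235 CPM in KMS, against 85.2 and 93.7 CPM in KM. The groups did not overlap, and the male KMS library was the highest (log2 fold change 1.03 ± 0.30 standard error, edgeR adjusted p = 0.112), with a log2 fold change of 0.57 without that library. Slc22a3, which encodes OCT3, was at or under 0.931 CPM in every library and was not tested.

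Slc22a5 encodes OCTN2, the carrier that recovers carnitine from the filtrate, and Slc22a4 encodes OCTN1, the carrier of the antioxidant ergothioneine. Slc22a5 (chromosome 11, 53864542 to 53891796) had 367 and 338 CPM in KMS, against 154 and 123 CPM in KM. The spread within each genotype was small beside the gap between them, with log2 ratios of 1.25 in the female and 1.45 in the male libraries. Its log2 fold change was 1.35 ± 0.22 (standard error, edgeR adjusted p = 0.0723, and 0.0286 with sex in the model), and the authors' deposited table gave an adjusted p of 2.31e-04. Slc22a4 (chromosome 11, 53983115 to 54030040) had 50.2 and 55.5 CPM in KMS, against 24.4 and 25.9 CPM in KM. Its replicates were close in both genotypes (log2 fold change 1.07 ± 0.17 standard error, edgeR adjusted p = 0.0697, and 0.0293 with sex in the model), and the authors' deposited table gave an adjusted p of 0.0372. Slc22a21, the mouse carnitine carrier gene between them, had 11.5 and 13.5 CPM in KMS, against 5.24 and 6.61 CPM in KM (log2 fold change 1.07 ± 0.28 standard error, edgeR adjusted p = 0.101). Slc22a5 and Slc22a21 share 13.7% and 12.1% of their 100-base windows, so some of their reads may not be told apart.

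Slc22a15 was the exception in this family, with 2.69 and 1.82 CPM in KMS, against 4.48 and 6.67 CPM in KM (log2 fold change -1.29 ± 0.41 standard error, edgeR adjusted p = 0.127). Among the other SLC22 genes, Slc22a23 had 168 and 109 CPM in KMS, against 80.8 and 81.9 CPM in KM, and Slc22a17, which encodes a receptor for lipocalin 2, had 38.8 and 28.4 CPM in KMS, against 25.8 and 23.2 CPM in KM. Both sets of libraries were apart without overlap, and neither gene passed (edgeR adjusted p = 0.129 and 0.245). Slc22a14 was at or under 0.756 CPM and was not tested.

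Slc47a1 encodes MATE1, the proton exchanger that exports organic cations taken up by OCT2 into the urine. It (chromosome 11, 61343400 to 61378842) had 368 and 545 CPM in KMS, against 277 and 228 CPM in KM. The groups did not overlap, and the log2 fold change was 0.85 ± 0.28 (standard error, edgeR adjusted p = 0.131). The log2 ratio was 0.41 in the female libraries and 1.26 in the male libraries, and the log2 fold change was 0.56 without the male KMS library.

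**Figure D2:**
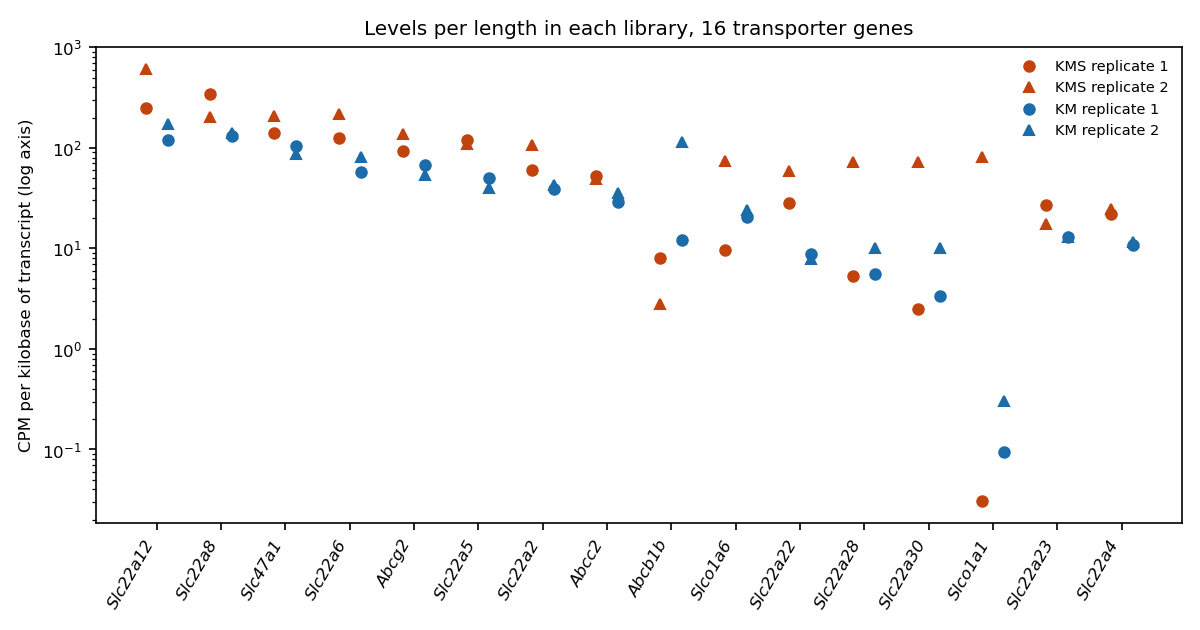
CPM per kilobase of transcript (y axis, log scale) in each library for 16 transporter genes in order of mean level per length, KMS left of KM in each column; circles are replicate 1 and triangles replicate 2. KMS lies above KM without overlap for the 8 leftmost genes, Abcb1b is high in 1 KM library, and Slco1a1 is high in 1 KMS library.

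Among SLCO genes, carriers of bile acids, steroid conjugates and hormones, no gene was higher in both KMS libraries than in both KM libraries. Slco1a1 encodes Oatp1a1, a carrier that in mouse kidney depends on androgens and is found in males. It (chromosome 6, 141907281 to 141946962) had 0.103 and 277 CPM in KMS, against 0.324 and 1.04 CPM in KM, which came from 1 and 2282 counts in KMS and 6 and 17 counts in KM. A single library, the male KMS library, was high, while the male KM library was near the level of the female ones. The log2 fold change of 7.68 ± 2.53 (standard error, edgeR adjusted p = 0.134, and 0.0325 with sex in the model) rests on that library and was -2.60 without it. Slco1a6, its neighbour, had 27.4 and 208 CPM in KMS, against 58.2 and 68.4 CPM in KM, so the KMS libraries lay on either side of KM (edgeR adjusted p = 0.513).

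Slco2a1, which encodes the prostaglandin transporter, had 92.3 and 46.7 CPM in KMS, against 104 and 65.6 CPM in KM, and Slco3a1 had 25.9 and 82.1 CPM in KMS, against 35.6 and 38.5 CPM in KM. The genotypes overlapped in both, as they did for Slco2b1, which ranged from 4.03 to 6.56 CPM (edgeR adjusted p = 0.657, 0.518 and 0.753). Slco4a1, a thyroid hormone carrier gene, had 5.59 and 5.35 CPM in KMS, against 12.8 and 46.4 CPM in KM. The groups did not overlap and KM replicate 2 was the highest (log2 fold change -2.43 ± 0.61 standard error, edgeR adjusted p = 0.0975, and 0.0350 with sex in the model), and the log2 fold change was -1.22 without that library and -3.07 without KM replicate 1. Slco4c1, a carrier of cardiac glycosides and thyroid hormone, had 0.621 and 0.729 CPM in KMS, against 4.16 and 1.41 CPM in KM (edgeR adjusted p = 0.137). Slco5a1 had no counts in KMS, against 0.432 and 11.1 CPM in KM. Taking 3 counts per library as the floor (0.337 CPM on average), its KMS level was at least 17.1-fold lower than the KM mean, nearly all of which came from KM replicate 2. Slco1a4 was at or under 0.850 CPM and was not tested.

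P-glycoprotein, the apical pump for lipophilic drugs, is encoded in mice by Abcb1a and Abcb1b. Abcb1b (chromosome 5, 8798147 to 8866314) had 34.3 and 12.03 CPM in KMS, against 52.2 and 493 CPM in KM. All KMS values were below all KM values, but the gap was set mostly by KM replicate 2, the library rich in injury and urothelial markers. Its log2 fold change was -3.55 ± 1.07 (standard error, edgeR adjusted p = 0.117), and -1.16 without KM replicate 2. It was -4.39 without KM replicate 1, which leaves KM replicate 2 alone. Leukocyte markers (7 of 8 with a row) summed to 286 and 184 CPM in KMS, against 393 and 828 CPM in KM, and 6 fibroblast and smooth muscle markers to 86.6 and 82.8 CPM in KMS, against 134 and 181 CPM in KM, and their part in these differences was not tested. Abcb1a had 2.59 and 2.07 CPM in KMS, against 3.24 and 4.78 CPM in KM, so Abcb1b was the main P-glycoprotein gene by level in every library. The pair shares 7.72% of the 100-base windows of Abcb1a and 8.72% of those of Abcb1b, mainly with each other. Abcb4 and Abcb5 were each at or under 0.796 CPM and were not tested.

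Among the apical exporters, Abcg2 and Abcc2 were higher by value in KMS and Abcc4 was not. Abcg2, which encodes the urate and drug exporter BCRP (chromosome 6, 58584491 to 58692451), had 529 and 789 CPM in KMS, against 387 and 309 CPM in KM. The groups did not overlap, with the wider gap in the male libraries at a log2 ratio of 1.35, against 0.45 in the female libraries (log2 fold change 0.92 ± 0.29 standard error, edgeR adjusted p = 0.128). Abcc2, which encodes MRP2, the apical exporter of glutathione and glucuronide conjugates (chromosome 19, 43782308 to 43838332), had 417 and 389 CPM in KMS, against 230 and 286 CPM in KM. The replicates of KMS were close, and the log2 fold change was 0.64 ± 0.23 (standard error, edgeR adjusted p = 0.149). Abcc4, which encodes MRP4, the other apical exporter of organic anions, had 115 and 53.2 CPM in KMS, against 94.0 and 130 CPM in KM. Its log2 ratio was 0.28 in the female and -1.28 in the male libraries, and the genotypes overlapped (edgeR adjusted p = 0.520).

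Among the other ABCC genes, Abcc3 and Abcc1 were lower in KMS without overlap, while Abcc6 was higher without overlap. Abcc3, which encodes MRP3, a basolateral exporter of conjugates (chromosome 11, 94343295 to 94393017), had 3.31 and 1.09 CPM in KMS, against 35.4 and 53.6 CPM in KM. The gap was wide in both sexes, with log2 ratios of -3.24 in the female and -5.09 in the male libraries. The log2 fold change was -4.30 ± 0.50 (standard error, edgeR adjusted p = 0.0662, and 0.00536 with sex in the model), it ranged from -5.30 to -3.73 when each library was left out, and the authors' deposited table gave an adjusted p of 8.67e-07. Abcc1, which encodes MRP1, had 32.1 and 20.5 CPM in KMS, against 46.3 and 40.1 CPM in KM (log2 fold change -0.71 ± 0.26 standard error, edgeR adjusted p = 0.151).

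Abcc6, an ATP-releasing transporter gene best known from liver and kidney, had 19.5 and 17.1 CPM in KMS, against 9.66 and 7.84 CPM in KM. Its replicates were close in each genotype (log2 fold change 1.06 ± 0.24 standard error, edgeR adjusted p = 0.0918). Abcc5 ranged from 59.3 to 70.9 CPM and Abcc10 from 20.2 to 21.8 CPM over the 4 libraries, and for both the genotypes overlapped. Abcc9, which encodes a regulatory subunit of ATP-sensitive potassium channels and not an exporter, had 1.66 and 4.01 CPM in KMS, against 8.96 and 4.84 CPM in KM (edgeR adjusted p = 0.194). Abcc8, its paralog, was at or under 0.674 CPM.

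In the ABCG family, Abcg1, an exporter of cholesterol to lipoproteins, had 7.97 and 4.74 CPM in KMS, against 12.3 and 16.4 CPM in KM, and Abcg3, a rodent gene, had 3.41 and 0.850 CPM in KMS, against 6.10 and 4.78 CPM in KM. For both, KMS lay below KM without overlap (log2 fold changes -1.17 ± 0.34 and -1.33 ± 0.61 standard error, edgeR adjusted p = 0.113 and 0.229). Abcg5, a sterol exporter gene, was at or under 0.324 CPM. Of the ABCB transporters of organelles, 3 of 5 were higher without overlap, against 29% of all genes tested. Abcb8 and Abcb10, in the inner mitochondrial membrane, had 63.9 and 53.3 CPM and 39.9 and 39.7 CPM in KMS, against 46.1 and 40.5 CPM and 28.8 and 27.7 CPM in KM. Abcb9, a lysosomal peptide transporter gene, had 12.5 and 11.2 CPM in KMS, against 6.96 and 4.65 CPM in KM. These were the higher ones (edgeR adjusted p = 0.193, 0.142 and 0.117). Abcb6 had 41.8 and 34.3 CPM in KMS, against 40.9 and 30.5 CPM in KM, and 2932 bases of its exons are shared with a predicted gene, Gm29253, on the same strand.

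Per length of the principal GENCODE transcript, the mean levels in CPM per kilobase were in KMS 432 for Slc22a12, 274 for Slc22a8, 173 for Slc47a1, 170 for Slc22a6, 115 for Abcg2 and 115 for Slc22a5. In KM the means of the same genes were 147, 136, 95.7, 68.9, 60.9 and 45.3 CPM per kilobase, and Abcb1b, at 63.3, stood above Abcg2 through KM replicate 2. The order of the 6 means was thus the same in both genotypes, while in KMS every gene overlapped its neighbour in that order between libraries. In KM the libraries of Slc22a12 overlapped those of Slc22a8, and those of Slc22a6 overlapped those of Abcg2. The summed level of all 54 genes was 5699 and 7473 CPM in KMS, against 3482 and 3938 CPM in KM, and the SLC22 organic anion genes held 2388 and 3399 CPM of it in KMS, against 1134 and 1277 CPM in KM. The plasma membrane ABCB genes were the opposite case, with 37.2 and 14.2 CPM in KMS, against 55.7 and 499 CPM in KM.

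Log2 ratios had opposite signs in the female and male libraries for 12 of the 46 genes, near the share over all genes tested (28%). With 1 library per genotype and sex, no difference between the sexes can be tested. In the female libraries the lowest ratios were those of Slc22a7, Slc22a13, Slc22a19 and Abcc3, from -3.84 to -3.24. In the male libraries the lowest were those of Abcb1b and Abcc3, at -5.30 and -5.09, and the highest was that of Slco1a1, at 7.49. Genes with both ratios above 1 were Slc22a4, Slc22a5, Slc22a6, Slc22a12 and Slc22a22.

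**Figure D3:**
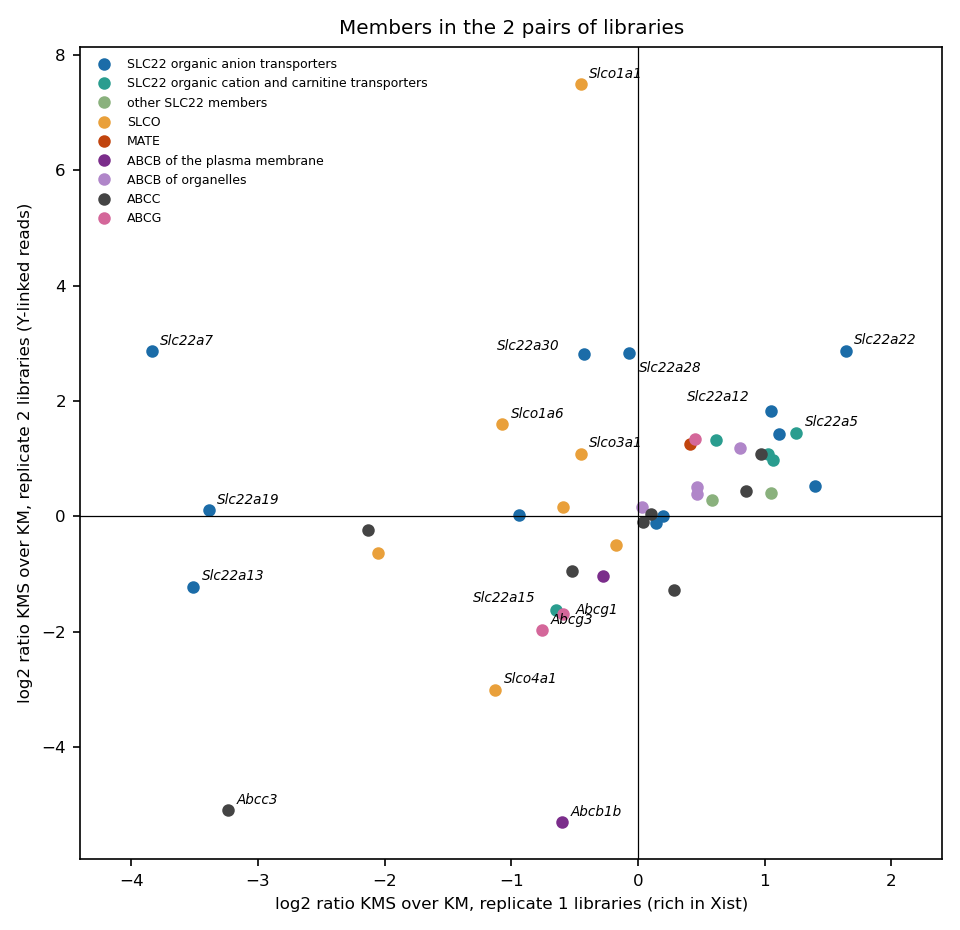
Log2 ratio of KMS over KM (CPM plus 0.5) in the replicate 1 libraries (x axis, rich in Xist) and the replicate 2 libraries (y axis, Y-linked reads) for 44 of the genes tested, coloured by family; each point is 1 gene. Slco1a1, Slc22a28 and Slc22a30 lie high on the y axis with x values below 0, Abcb1b lies low on the y axis only, and Abcc3 is low on both axes.

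Several of the genes sit next to each other. The 3 neighbours on chromosome 11, Slc22a5, Slc22a21 and Slc22a4, had log2 fold changes of 1.35, 1.07 and 1.07. On chromosome 19, the values along the chromosome were 1.56 for Slc22a12, -2.79 for Slc22a19, -0.57 for Slc22a26, 0.14 for Slc22a27, 2.32 for Slc22a28, 0.17 for Slc22a29, 2.47 for Slc22a30, 1.01 for Slc22a8 and 1.30 for Slc22a6. The chromosome 11 neighbours were thus alike in value. The chromosome 19 genes listed were not alike throughout, though Slc22a8 and Slc22a6, next to each other, were close at 1.01 and 1.30. Slc22a12 lies apart from the others, as it ends at 6543070 and Slc22a19 starts at 7673075.

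**Figure D4:**
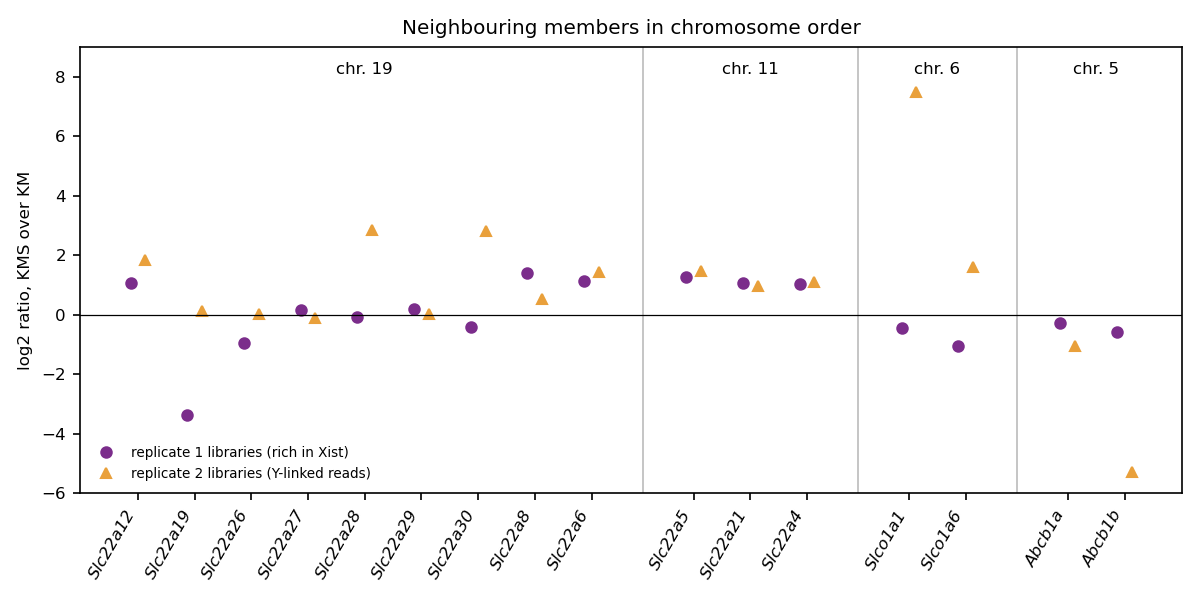
Log2 ratio of KMS over KM (y axis) in the replicate 1 libraries (circles) and the replicate 2 libraries (triangles) for neighbouring transporter genes and Slc22a12 in chromosome order (x axis, not to distance). All points of the chromosome 11 genes lie above 0, while on chromosomes 19 and 6 high triangles stand over circles near or below 0 at Slc22a28, Slc22a30 and Slco1a1.

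A list of 41 genes that work with or control these transporters was read in the same fits, of which 40 were tested. Genotype-only edgeR called 0 of them, with 17 higher and 3 lower at an unadjusted p under 0.05, against 12.2% and 14.1% of all genes. The model with sex called 4 higher and 2 lower, against 1.93% and 3.5% of all genes, and DESeq2 called 12 higher and 2 lower, against 5.82% and 5.96%. The median log2 fold change was 0.58, and 20 were higher and 4 lower without overlap, against 29% and 31.3% of all genes tested. Slc13a3, which encodes the dicarboxylate carrier that feeds the OAT exchangers, had 807 and 529 CPM in KMS, against 307 and 427 CPM in KM (edgeR adjusted p = 0.158). Slc5a12, a sodium-lactate carrier gene, had 1788 and 1347 CPM in KMS, against 750 and 391 CPM in KM (edgeR adjusted p = 0.104, and 0.0497 with sex in the model). The urate and phosphate carrier genes Slc17a1 and Slc17a3 had 368 and 620 CPM and 146 and 508 CPM in KMS, against 253 and 246 CPM and 138 and 155 CPM in KM. Slc17a3 overlapped between the genotypes and Slc17a1 did not. Slc51a, which encodes a subunit of the basolateral organic solute exporter, rose in the model with sex (edgeR adjusted p = 0.00652), with 52.8 and 149 CPM in KMS, against 16.3 and 32.9 CPM in KM.

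Pdzk1, which anchors URAT1 and other apical carriers, had 49.8 and 42.5 CPM in KMS, against 32.5 and 25.1 CPM in KM (edgeR adjusted p = 0.118), and Slc9a3r1, the NHERF1 scaffold gene, had 244 and 266 CPM in KMS, against 150 and 143 CPM in KM (edgeR adjusted p = 0.0957). Pdzd3, another scaffold gene, and Pdzk1ip1, which encodes a partner of Pdzk1, rose in the model with sex (edgeR adjusted p = 0.0197 and 0.0497), with 107 and 131 CPM and 753 and 693 CPM in KMS, against 47.8 and 47.5 CPM and 348 and 263 CPM in KM. In each of these 4 genes both KMS libraries lay above both KM libraries. Hnf4a, the gene of a nuclear receptor that drives proximal tubule genes, had 620 and 738 CPM in KMS, against 429 and 287 CPM in KM, with an adjusted p of 0.124 by edgeR, while the authors' deposited table gave 0.0462. The 2 genes that fell in the model with sex were Esr1, the oestrogen receptor gene, and Cebpb (edgeR adjusted p = 0.0112 and 0.0395), with 1.86 and 2.79 CPM and 13.5 and 15.8 CPM in KMS, against 9.61 and 35.9 CPM and 24.0 and 55.8 CPM in KM. Ghr, the growth hormone receptor gene, overlapped between the genotypes, with 218 and 404 CPM in KMS, against 280 and 207 CPM in KM.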

How the data were processed

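Poly(A) RNA of 4 libraries was sequenced as pairs of 150 bases from a directional kit, per the labels' protocols. Tools listed in the submitters' processing notes, without roles, are HISAT2, StringTie, Trimmomatic 0.35, cutadapt 1.9.1, MACS2 2.1.1 and FastQC, with the build GRCm38 (mm10). Neither the counting program nor its use of strand is stated there. The authors deposited raw counts per gene for each library, and their own log2 fold change and p-values (plain and adjusted), per the file headers, which do not name the test. A second deposited sheet was not used.

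Counts of all genes were fitted with edgeR 4.0.16 (R 4.3.3; filterByExpr with minimum count 10 and minimum total 15, TMM, quasi-likelihood F test, genotype only, Benjamini-Hochberg over 15002 genes, called under 0.05). Standard errors come from the F statistic. Library ratios use CPM plus 0.5. The model with sex adds the replicate number, which coincides with sex by Xist and Y-linked reads. Alternatives were other scalings and filters, DESeq2 1.42.0, limma-voom (limma 3.58.1) and each library left out; fits were tested on simulated counts. For 2 against 2 libraries a two-sided permutation test cannot go below 0.333. Labels do not say how many animals a library holds. The replicates of each genotype differ in sex by these reads, so they are not from 1 animal, and the genotype-only p-values reflect the spread between such libraries. In the model with sex, the p-values instead reflect how far the genotype ratio differs between the replicate 1 and replicate 2 libraries. Both kinds also borrow from the variation of other genes. Floors of 3 counts cover counting error only. The chi-square per degree of freedom between replicates was 40.4 in KMS and 61.9 in KM, so no library repeats another.

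Members, gene lists and the rule for named genes (up to 6 of highest mean CPM per family, any gene called by edgeR, by the deposited table or by the model with sex, and the 5 largest changes each way) were chosen with earlier results of these data known; Slc22a7, Slc22a26, Slc22a27, Slc22a29, Slco4c1, Slco5a1, Abcc6 and Abcc9 were described outside it. Gene positions come from RefSeq (GRCm38). Transcript lengths, exon overlaps and shared 100-base windows come from GENCODE M21 (GRCm38). Promoters come from RefSeq (GRCm38.p6), where 41 of 54 genes have an entry. The partner genes named are the 8 of highest mean CPM, Hnf4a, Pdzk1 and those called by the deposited table or by the model with sex. Some genes of these lists and 1 motif are not reported here.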

Additional observations from a re-analysis of the deposited data

Results flagged for a closer look

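Of 39 named transporters tested, 9 had KMS over KM log2 ratios of opposite sign in female (replicate 1) and male (replicate 2) libraries. The share over all genes tested was 28%, so such signs are not particular to the transporters. With 1 library per genotype and sex, the difference between the sexes was not tested. The ratios were -0.42 in female and 2.81 in male libraries for Slc22a30, and -0.07 in female and 2.83 in male libraries for Slc22a28. They were -3.39 in female and 0.11 in male libraries for Slc22a19. Among SLCO genes they were -0.45 in female and 7.49 in male libraries for Slco1a1, -1.07 and 1.6 for Slco1a6, -0.45 and 1.08 for Slco3a1, and -0.59 and 0.16 for Slco2b1, in the same order of sexes. For Abcc4 they were 0.28 in female and -1.28 in male libraries, and for Abcc10 0.04 in female and -0.11 in male libraries. Slc22a7, Slc22a26 and Slc22a27, outside the rule for named genes, also had opposite signs. Those of Slc22a7 were -3.84 in female and 2.86 in male libraries.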

How the results depend on the processing

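Genotype-only edgeR called 0 transporters, and so did other size factors, other filters and limma-voom. DESeq2 called 13 higher, against 5.82% of all genes, and 3 lower, against 5.96%. It also called 14 partner genes, 12 of them higher and 2 lower. An adjusted p under 0.10 gave 5 higher, against 3.53% of all genes, and 3 lower, against 4.58%. The fit with the replicate number as a block is the model with sex. It called 5 higher, against 1.93% of all genes, and 3 lower, against 3.5%. It also called 6 partner genes, 4 of them higher and 2 lower. The labels do not pair the libraries, and deviations of same-numbered libraries correlated at r = 0.125 across 15002 genes, which are not independent. Leaving out each library in turn gave from 0 to 5 transporters higher, from 0 to 4 lower and from 0 to 10 partner genes, and a median log2 fold change from -0.001148 to 0.5369. Library totals alone put the median of all genes at -0.13 and turned Abcb6 to -0.0196 and Abcc5 to -0.0449. The log2 fold change changed sign when some library was left out for Slc22a30 (-1.42 to 3.46), Slc22a28 (-0.54 to 3.26), Slc22a19 (-3.69 to 0.28), Slco1a6 (-1.19 to 1.76), Slco2a1 (-0.83 to 0.14), Slco1a1 (-2.6 to 8.72), Slco3a1 (-0.5 to 1.19), Slco2b1 (-0.57 to 0.15), Abcb6 (-0.1 to 0.33), Abcc4 (-1.03 to 0.0538), Abcc5 (-0.00576 to 0.2) and Abcc10 (-0.0552 to 0.0398). The other 27 named transporters tested kept their sign under every alternative run. The cause of these changes was not tested. The smaller KMS libraries limit genes near the floor of 3 counts.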
